A study of Mus musculus with 15 samples.

Results

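The promoters of Nipbl, Esco1 and Yy1 were followed in promoter-capture Hi-C, a method in which pieces of DNA that lie near each other in the nucleus are ligated and those ligated to chosen promoters are enriched and sequenced. These were the rows of the deposited score table that carry one of the 3 gene names: 39 of 36353 listings of a promoter with a fragment, formed by 3 of 4429 promoters. Esco1 had 18 listed fragments, Nipbl 12 and Yy1 9. Of a fixed list of 59 genes for cohesin, condensin, looping and nuclear architecture factors, these 3 and Maz, Hnrnpu, Nsmce4a, Pttg1, Sgol2 and Lmna were the 9 matched to a promoter of the table.

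The 15 libraries came from hippocampal neuronal nuclei of mice, sorted with antibodies against NeuN and the fluorescent protein. All animals carried ArcCreERT2 with the R26R-STOP-floxed yellow fluorescent protein (eYFP) reporter (genotype +/+ in the labels), so Cre was made under the Arc promoter, acted while 4-hydroxytamoxifen was present, and marked cells active at that time. The drug was given 1 h before contextual fear conditioning. Going by the titles, there were 3 Basal, 4 Early, 4 Late and 4 Reactivated libraries. The protocol gives collection at 1.5 to 2 h after the task, or at 5 days after conditioning with or without renewed exposure to tone and context, but the labels do not say which group was collected when, nor how Basal was treated. Their treatment entries give collection days from 0 to 14 in sample order and no recall for any sample, which conflicts with the protocol, and were not used. For 10000 nuclei the hippocampi of 10 to 12 mice were combined, so each library is a pool and not a single animal. The table holds contacts and no expression, so the sorted cell type could not be checked against expressed markers.

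Cohesin is a ring-shaped complex that extrudes loops of DNA and holds sister chromatids together. NIPBL, the product of Nipbl, loads the ring onto DNA and drives extrusion. ESCO1 is an acetyltransferase that modifies the SMC3 subunit, which stabilises cohesin on DNA, and it acts outside S phase as well as during it. YY1 is a zinc finger transcription factor that binds promoters and enhancers and can bridge them by pairing with itself. Mature neurons no longer divide, and cohesin is studied in them for its loops.

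Every value below is the authors' interaction score, a whole number of 2 or more in a library, with no entry where no score is listed. An interaction was counted as called at a score of 5 or more. The libraries differed widely: they listed 32 to 10514 fragments, their called interactions ran from 30 in Reactivated library 1 and 248 in Reactivated library 2 to 11658 in Reactivated library 4, and their median scores from 11 to 310. Read depth is unknown. Libraries 1 and 2 of Basal, Late and Reactivated and libraries 3 and 4 of Early, Late and Reactivated formed 6 pairs, in which the smaller member shared 48.3% to 100% of its fragments with the larger, against at most 16.7% for other libraries of a group and 29.7% across groups. In each of these pairs the scores of shared fragments differed by more than the sampling noise of counts (chi-square per degree of freedom 2.72 to 11.5), while their ranks correlated at a Spearman coefficient of 0.866 to 0.988. Whether the scores are counts is not known, so this cannot tell whether paired libraries are separate samples. They were kept as separate libraries, as deposited, and results are also given with the 9 library sets that they form. Nothing in the labels says whether the libraries of a set came from separate pools of animals, so the p-values measure the spread between these libraries, which may be technical. No member fragment had a score in Reactivated library 1 or 2.

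**Figure D1:**
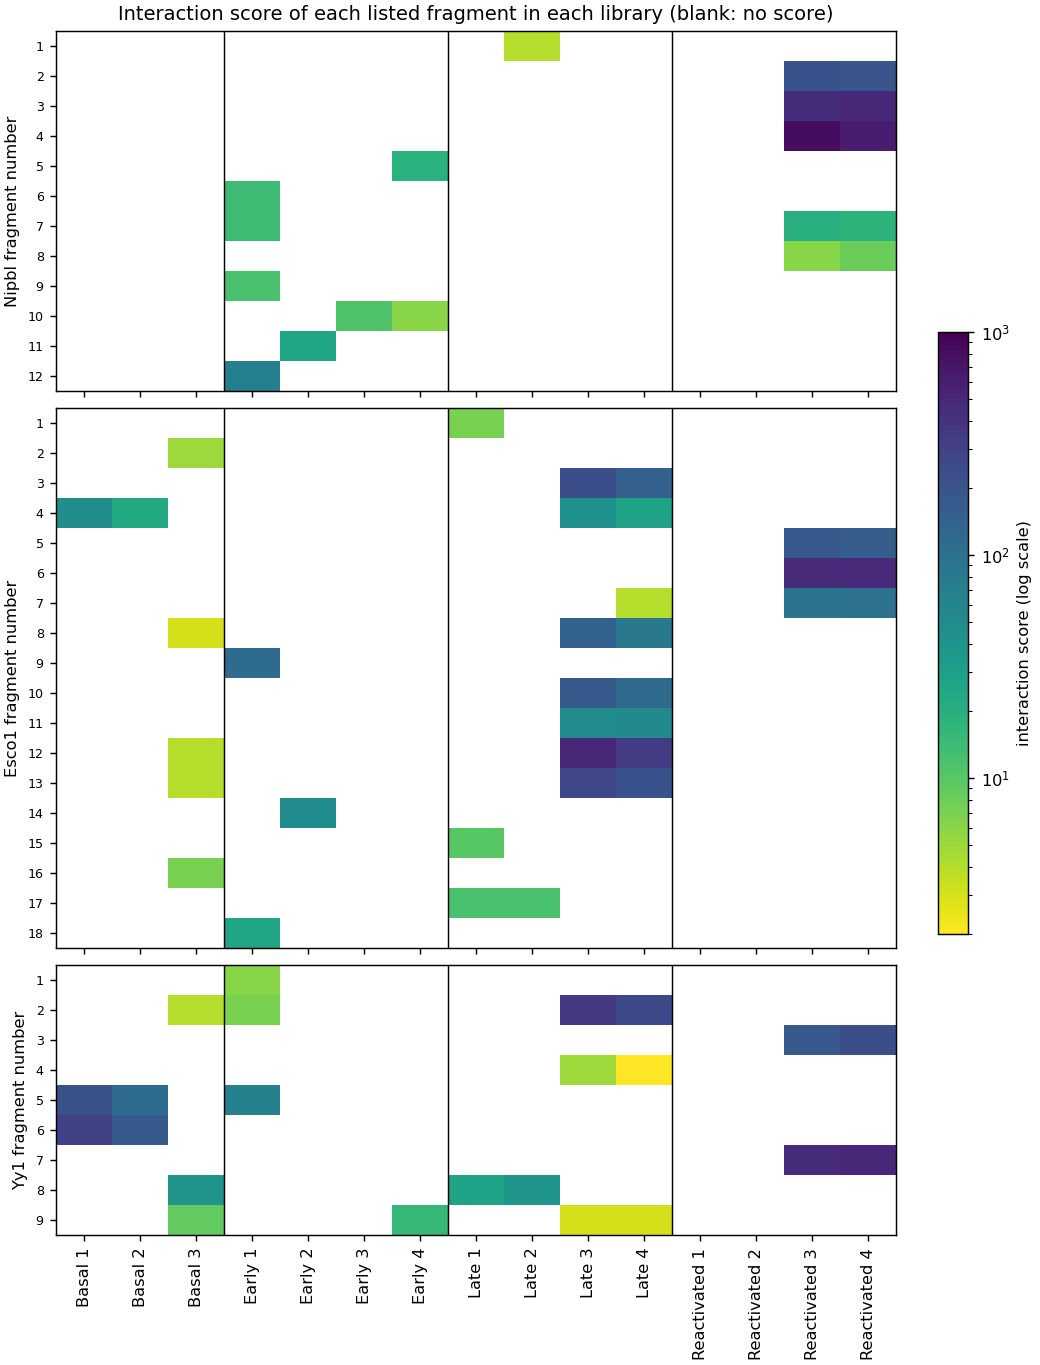
Interaction score (colour, log scale) of the 12 Nipbl, 18 Esco1 and 9 Yy1 fragments (rows, numbered by position along the chromosome) in the 15 libraries (columns); blank cells hold no score. Many scored cells lie in blocks of paired libraries, above all Late 3 and 4 for Esco1 and Reactivated 3 and 4 for Nipbl.

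Nipbl, the loader gene, was contacted in Early and in the larger Reactivated libraries. Its number of called interactions was 0, 0 and 0 in Basal libraries 1 to 3, and 4, 1, 1 and 2 in Early libraries 1 to 4. It was 0 in each of the 4 Late libraries, and 0, 0, 5 and 5 in Reactivated libraries 1 to 4. Early thus lay above Basal and above Late without overlap, whereas Reactivated overlapped with every other group. Of the 4403 promoters with a call in any library, 1.41% were higher in every Early library than in every Basal library and 0.704% were higher in every Early library than in every Late library. Chosen after its values were seen, the pattern of no call in any Basal or Late library together with a call in every Early library was shared by 6 of the 4403 promoters (0.136%), Nipbl among them, while 308 (7.00%) had no call in any Basal or Late library. The single Nipbl score in Late was a 4 in Late library 2, below the level of a call, on chromosome 15 from 7968851 to 7977227.

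Early libraries scored 7 Nipbl fragments and Reactivated libraries 5, and 1 of the 7 and 1 of the 5 were the same fragment. Scores in a single group were common in the whole table, with 67.1% of all 36353 listings scored in 1 group. For Nipbl these were 11 of 12 listings, and whether this differs from the whole table was not tested. Over all promoters, 50.5% of the calls of Early library 1 and 51.6% of those of Reactivated library 3 had a score in any other group. The shared Nipbl fragment, on chromosome 15 from 8443746 to 8448110 (mm9, as are all fragment positions here), had a score of 14 in Early library 1. It had 20 and 18 in Reactivated libraries 3 and 4. The highest scores of the gene lay on a short fragment of 367 bp on chromosome 15 from 8350019 to 8350385, with 805 and 611 in Reactivated libraries 3 and 4 and no score in the other 13 libraries. A fragment on chromosome 15 from 8342185 to 8346230 had 447 and 488 in the same 2 libraries and no score elsewhere, and one from 8326006 to 8330524 had 207 and 195. These 3 fragments followed each other in the list without adjoining on the chromosome, and were scored in 1 library set only. Another Reactivated fragment, from 8565527 to 8566863 with 6 and 8 in those 2 libraries, lay directly beside an Early one. The latter, from 8566866 to 8571512, had 12 in Early library 1 and was not counted as shared.

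Scores of Nipbl in Early were low and scattered. The fragment scored in more than 1 Early library lay on chromosome 15 from 8691732 to 8694842, with 11 in Early library 3 and 6 in Early library 4, which form 1 set. The other 6 Early fragments each had a score in 1 Early library, from 12 to 68. Against all fragments scored in the same library, the median Nipbl score stood at percentiles of 14.3, 20, 13.0 and 12.1 in Early libraries 1 to 4. It stood at percentiles of 43.1 and 42.1 in Reactivated libraries 3 and 4. Measured by the sum of its scores, 94.2% of the gene's signal came from Reactivated libraries 3 and 4, which held 59.7% of the summed scores of the whole table.

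Esco1, the acetyltransferase gene, had most of its contacts in Late, and those mostly in 1 library set. Its called interactions were 1, 1 and 2 in Basal libraries 1 to 3, and 2, 1, 0 and 0 in Early libraries 1 to 4. They were 3, 1, 7 and 7 in Late libraries 1 to 4, and 0, 0, 3 and 3 in Reactivated libraries 1 to 4. Late libraries 3 and 4 lay above all other libraries, while Late libraries 1 and 2 overlapped with every other group. A count of 7 or more in both Late libraries 3 and 4, a level taken from the Esco1 values themselves, was found for 132 of 4403 promoters (3.00%).

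The strongest Esco1 fragments of Late were spread over a region of the gene's chromosome 18. The fragment from 11093640 to 11096809 scored 502 and 332 in Late libraries 3 and 4, and 4 in Basal library 3. Its neighbour from 11120566 to 11124434 had 269 and 210 in those Late libraries and again 4 in Basal library 3. The fragment from 10515563 to 10518358 had 223 and 150, and the one from 10818141 to 10821717 had 174 and 117, with no score in the other 13 libraries. In each of these 4 fragments the higher score was that of Late library 3. Late libraries 1 and 2 scored none of them: their 3 Esco1 fragments were others, with scores of 7 to 12.

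Reactivated libraries 3 and 4 scored 3 Esco1 fragments. The fragment on chromosome 18 from 10594087 to 10604751 had 471 and 466 there and no score in the other 13 libraries. A fragment from 10562943 to 10563329 had 180 and 160, and one from 10659244 to 10667695 had 92 and 96. The last was the single Esco1 fragment found in both Late and Reactivated, with a score of 4 in Late library 4, and thus 1 of 11 Late and 1 of 3 Reactivated fragments, in a table where most listings were scored in 1 group. In Early the highest score was 115 in Early library 1, on the fragment from 10795753 to 10798098, which had no score in any other library. The fragment scored in most libraries, from 10556238 to 10556497, had 48 and 23 in Basal libraries 1 and 2 and 43 and 28 in Late libraries 3 and 4. It was also listed with Thoc1, which encodes a subunit of an mRNA export complex, so its scores cannot be given to either promoter alone.

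Within their libraries, Esco1 scores in Late libraries 3 and 4 were of middle rank, with medians at percentiles of 51.6 and 49.5 and the highest score at 76.8. These 2 libraries held 57.1% of the gene's summed scores, against 16.6% of those of the whole table. Reactivated libraries 3 and 4 held 35.1%, against 59.7%.

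Yy1, the looping factor gene, had between 0 and 3 called interactions in every library. Its called interactions were 2, 2 and 2 in Basal libraries 1 to 3, and 3, 0, 0 and 1 in Early libraries 1 to 4. They were 1, 1, 2 and 1 in Late libraries 1 to 4, and 0, 0, 2 and 2 in Reactivated libraries 1 to 4. All groups overlapped. The equal number in Basal did not come from equal fragments, since Basal libraries 1 and 2 shared none with Basal library 3. Exactly 2 calls in every Basal library, a pattern taken from the Yy1 values themselves, were found for 53 of 4403 promoters (1.20%).

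In Basal libraries 1 and 2 the Yy1 promoter was scored with fragments on chromosome 12 from 110180815 to 110182567, with 299 and 173, and from 110051510 to 110052792, with 216 and 115. The first had no score in the other 13 libraries, and the second had 66 in Early library 1. In Late libraries 3 and 4 the leading fragment lay from 109818013 to 109819293, with 353 and 253, and it also had 7 in Early library 1 and 4 in Basal library 3. It was listed with Begain as well, which encodes a postsynaptic density protein. In Reactivated libraries 3 and 4 the leading fragment lay from 110219646 to 110222889, with 455 and 505, followed by one from 109845246 to 109845879, with 179 and 222, and neither had a score elsewhere.

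The Yy1 fragment that stood highest within its own libraries was one with low scores. A fragment of 230 bp on chromosome 12 from 111656923 to 111657152 had 40 in Basal library 3 and 28 and 39 in Late libraries 1 and 2. These scores lay at percentiles of 88.2, 75.1 and 85.0 within their libraries, whose median scores were 13, 18 and 19. The fragment from 112586847 to 112587247, listed also with the signalling adaptor gene Traf3, had 9 in Basal library 3, 16 in Early library 4 and 3 in each of Late libraries 3 and 4. Both fragments were called in more than 1 group at scores that would rank low in the libraries with large scores.

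**Figure D2:**
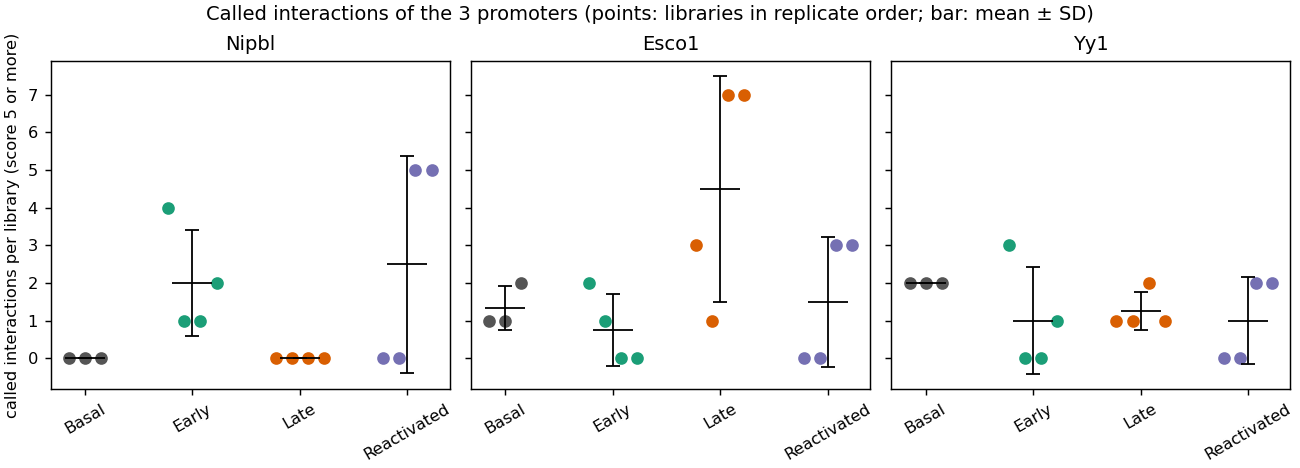
Called interactions (score of 5 or more) per library for Nipbl, Esco1 and Yy1 in the 4 groups; points are libraries in replicate order, bars show mean ± SD (n = 3 for Basal, n = 4 for the others). Nipbl lies at 0 in all Basal and Late libraries, Esco1 reaches 7 in Late libraries 3 and 4, and Yy1 stays between 0 and 3.

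The contrast of Early with Basal stands, going by the names of the groups, for the first stage after conditioning. Nipbl had 2 ± 1.41 called interactions in Early (SD, n = 4) and 0 in Basal (n = 3), so that the difference was 2 (standard error 1.00, limma adjusted p of 0.899). Esco1 had 0.75 ± 0.957 compared with 1.33 ± 0.577, which is a difference of -0.58 (standard error 1.50, limma adjusted p of 1). Yy1 had 1 ± 1.41 against 2 ± 0, a difference of -1 (standard error 1.04, limma adjusted p of 0.991). None of the 3 passed, and neither did any other promoter: 0 of 4403 (0%) had a limma adjusted p under 0.05, while 201, Nipbl among them at 0.0458, were under 0.05 without adjustment. In simulated counts with the library sizes found here, this fit recovered 0 of 200 promoters given 2 added calls, in this comparison and in those below. That no promoter passed therefore does not show that no change of that size took place. The direction for Esco1 was not stable, since without the fragment shared with Thoc1, or at a score of 10 or more, the difference was 0.0833.

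By score, the Early against Basal comparison moved Yy1 most. The fragment on chromosome 12 from 110180815 to 110182567, with 299 and 173 in Basal and no score in Early, differed by -4.08 on the asinh scale (standard error 1.41, limma adjusted p of 0.185). For Nipbl the fragment with the largest difference was that scored in Early libraries 3 and 4, at 1.40 (standard error 0.961, adjusted p of 0.572 by limma). For Esco1, the fragment shared with Thoc1 differed by -2.80 and the one with 115 in Early library 1 by 1.36. Of the 39 member listings 11 were higher in Early and 11 lower, and 17 had no score in either group. Here and in the comparisons below, a listing scored in a single group of a comparison could only be higher in that group. Such counts therefore mostly repeat where fragments were scored. Among all 36353 listings 35.8% were higher and 23.6% lower. Limma called 0 of 36353 listings (0%), with 3868 under 0.05 before adjustment, a count that treats paired libraries as separate. With each library set as its mean it was 60.

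Late against Early compares a later stage with the earlier, and here the differences of Nipbl and Esco1 had opposite signs, though neither passed the test. In Late Esco1 had 4.5 ± 3 called interactions, compared with 0.75 ± 0.957 in Early (SD, n = 4 each), so that the difference was 3.75 (standard error 1.39, limma adjusted p of 0.306). Its unadjusted p of 0.00697 ranked at 84 of the 4403 promoters. Nipbl had 0 in Late against 2 ± 1.41, a difference of -2 (standard error 0.927, limma adjusted p of 0.487). Yy1 had 1.25 ± 0.5 against 1 ± 1.41, a difference of 0.25 (standard error 0.964, limma adjusted p of 1). No promoter passed: limma called 0 of 4403 (0%), while 420, Esco1 and Nipbl among them, were under 0.05 without adjustment.

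The Esco1 difference between Late and Early rested on Late libraries 3 and 4. Without that set it was 1.25 (standard error 1.21, limma adjusted p of 0.784), and without Late libraries 1 and 2 it was 6.25 (standard error 1.33, limma adjusted p of 0.0143), a fit that leaves a single library set in Late. When each set was reduced to a single mean, the difference was 3.5 (standard error 2.02, limma adjusted p of 1). Per 1000 called interactions of the library, which allows for library size, Esco1 was higher in Late by 0.516 (standard error 0.175, limma adjusted p of 0.245) and Nipbl lower, with a difference of -0.42 (standard error 0.117, limma adjusted p of 0.167). By score, 11 of the 18 Esco1 listings were higher in Late and 3 lower, whereas 1 of the 12 Nipbl listings was higher and 7 lower. Each of these listings had a score in Late or in Early but not in both, so its direction only repeats where it was scored. Among all listings 34.4% were higher and 35.4% lower. The largest Esco1 difference was 3.35 on the asinh scale, for the fragment with 502 and 332 in Late (standard error 1.55, limma adjusted p of 0.284). The leading Yy1 fragment of Late differed by 2.54 (standard error 1.65, limma adjusted p of 0.395). Limma called 0 of 36353 listings (0%), with 5505 under 0.05 before adjustment, among which were 6 of Esco1. With each library set as its mean, 27 listings were under 0.05 before adjustment.

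The contrast of Reactivated with Late stands, going by the names, for recall. Nipbl had 2.5 ± 2.89 called interactions in Reactivated against 0 in Late, so that the difference was 2.5 (standard error 0.927, limma adjusted p of 0.161). Esco1 had 1.5 ± 1.73 against 4.5 ± 3, a difference of -3 (standard error 1.39, limma adjusted p of 0.308). Yy1 had 1 ± 1.15 against 1.25 ± 0.5, a difference of -0.25 (standard error 0.964, limma adjusted p of 0.985). Here too limma called 0 of 4403 promoters (0%), and 634 were under 0.05 without adjustment, Nipbl (0.00702) and Esco1 (0.0309) among them.

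These values moved with the 2 small Reactivated libraries, and since this contrast shares the Late libraries with the one before it, their signs are not independent. Without Reactivated libraries 1 and 2, Nipbl differed by 5 (standard error 0.771, limma adjusted p of 0.000144), Esco1 by -1.5 (adjusted p of 0.452 by limma) and Yy1 by 0.75 (adjusted p of 0.505 by limma). In that fit 1238 of 4403 promoters passed, and a single library set remained in Reactivated. A count of 5 or more in both Reactivated libraries 3 and 4, a level taken from the Nipbl values themselves, was found for 709 of 4403 promoters (16.1%). Per 1000 called interactions of the library, the Nipbl difference was 0.220 (standard error 0.117, limma adjusted p of 0.449). Without Late libraries 3 and 4, the Esco1 difference was -0.5 (standard error 1.21, limma adjusted p of 0.888), and without Late libraries 1 and 2 it was -5.5 (standard error 1.33, limma adjusted p of 0.0165). With each library set as its mean, the adjusted p by limma was 1 for all 3 promoters in all 3 comparisons. In that setting 25, 102 and 124 of 4403 promoters were under 0.05 without adjustment in the successive comparisons, and no member was among them.

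By score, the Nipbl fragment with 805 and 611 in Reactivated differed from Late by 3.62 on the asinh scale (standard error 1.48, limma adjusted p of 0.141). The Esco1 fragment with 471 and 466 differed by 3.42 and that with 502 and 332 in Late by -3.35. The Yy1 fragment with 455 and 505 differed by 3.43 and that with 353 and 253 in Late by -3.20. Of the 39 member listings 10 were higher in Reactivated and 15 lower, against 33.3% and 32.8% of all listings. Limma called 0 of 36353 listings (0%), with 9507 under 0.05 before adjustment, among which were 13 of the members. With each library set as its mean, 4 listings were under 0.05 before adjustment, so the larger count rests on treating paired libraries as separate.

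**Figure D3:**
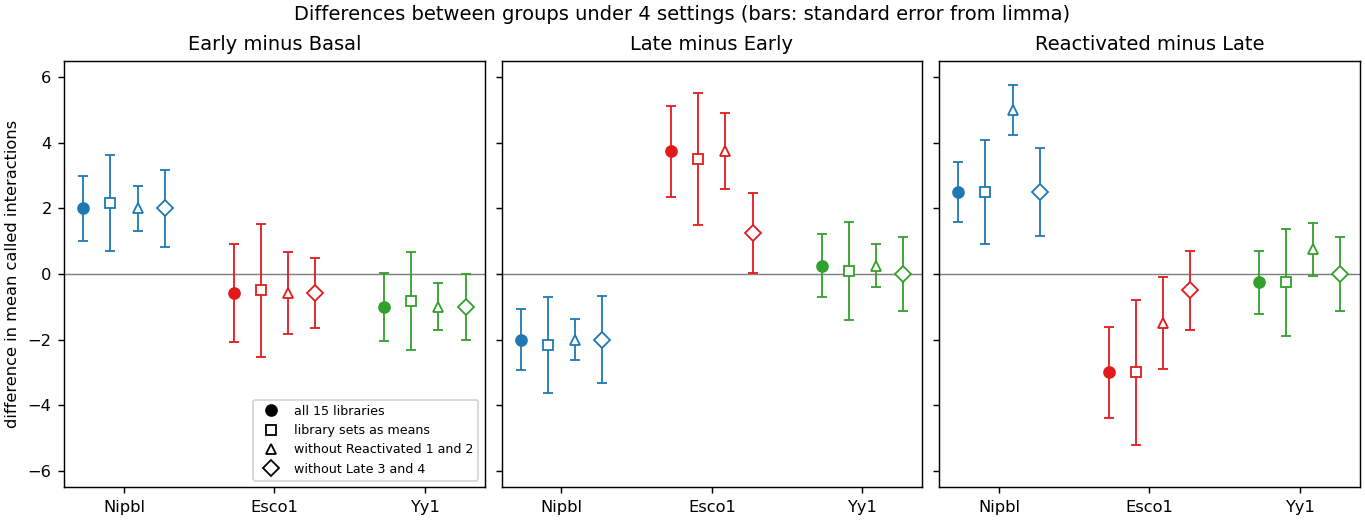
Difference in mean called interactions for 3 successive comparisons (panels) with the standard error from limma (bars), for all 15 libraries, with library sets entered as means, without Reactivated libraries 1 and 2, and without Late libraries 3 and 4. The Nipbl difference of Reactivated minus Late moves from 2.5 to 5 without the 2 small libraries, and the Esco1 difference of Late minus Early from 3.75 to 1.25 without Late libraries 3 and 4; successive panels share a group.

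In position, most fragments of each promoter lay in a cluster and a few lay far along the chromosome. Bait positions were not analysed here, and distances were taken from the median position of a promoter's own fragments. All but 1 of the 12 Nipbl fragments lay within 1 Mb of it, and the exception, on chromosome 15 from 16696075 to 16697972, was 8.27 Mb away and had a score of 68 in Early library 1 alone. Of the Esco1 fragments 13 lay within 1 Mb and 5 at 11.8 to 74.2 Mb. Of the Yy1 fragments 6 lay within 1 Mb and the others at 1.60, 2.53 and -19.3 Mb from it. Over the 3663 promoters with at least 3 fragments on a single chromosome, the median share beyond 1 Mb was 19.0%, against 8.33% for Nipbl, 27.8% for Esco1 and 33.3% for Yy1. None of these shares was extreme, at percentiles of 28.3, 67.5 and 76.6 among those promoters.

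The far Esco1 fragments had scores that were small numbers, and were scored in libraries other than those that led the gene. They had 49 in Early library 2, 10 in Late library 1, 7 in Basal library 3, 12 in each of Late libraries 1 and 2, and 25 in Early library 1. Within their libraries these scores stood at percentiles of 15.4 to 28.2. Fragments within 1 Mb had lower scores in Basal library 3 (3 to 5) and Late library 1 (7), and a higher one in Early library 1 (115). No far fragment was scored in Late libraries 3 and 4 or in Reactivated libraries 3 and 4, where all scored Esco1 fragments lay within 1 Mb.

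**Figure D4:**
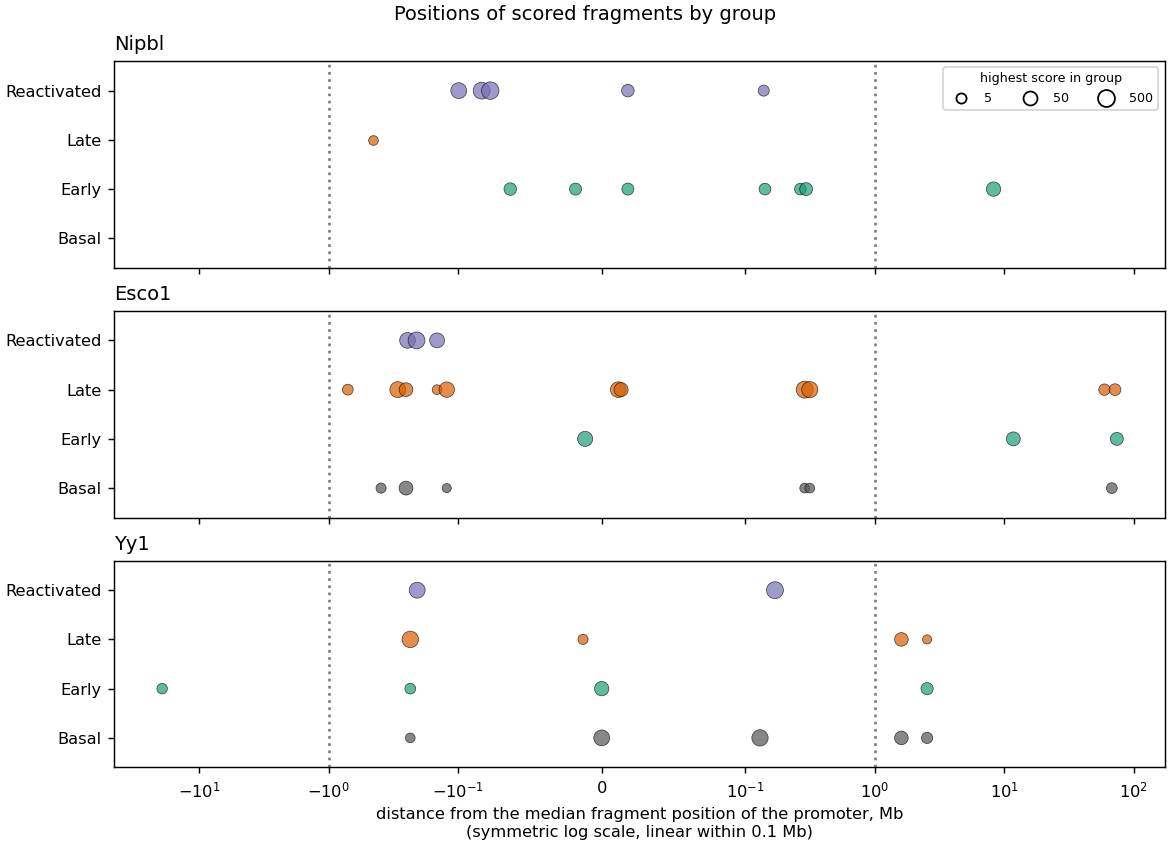
Distance of each scored fragment from the median fragment position of its promoter (Mb, symmetric log scale) by group; point size follows the highest score in the group and dotted lines mark 1 Mb. The largest points lie within 1 Mb, and the Esco1 fragments beyond 10 Mb were scored in Basal, Early and Late and not in Reactivated.

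Recurrence of the member fragments was near that of the whole table. Of the 39 member listings 29 (74.4%) were scored in 1 library set, 8 in 2 and 2 in 3, and none in more, against 65.6% in 1 set among all 36353 listings. By group, 29 (74.4%) were scored in 1 group, against 67.1% of all listings, and 0 in all 4, against 1.60%. Recurrence across groups was found for 1 of 12 Nipbl, 5 of 18 Esco1 and 4 of 9 Yy1 fragments. The share scored in 1 library set was 91.7% for Nipbl, 72.2% for Esco1 and 55.6% for Yy1. These shares stood at percentiles of 87.4, 59.3 and 28.9 among 3671 promoters with at least 3 fragments, whose median was 66.7%. The fragments scored in 3 sets were both of Yy1, and both were also listed with another promoter. Fragment number also differed: Esco1, with 18, was at or below 405 of 4429 promoters including itself, Nipbl with 12 at or below 1012 and Yy1 with 9 at or below 1640, against a median of 6. Yy1 fragments were short, with a median of 1281 bp against 3110.5 bp as the median over promoters, a percentile of 5.38, while Nipbl (3578.5 bp) and Esco1 (2679.5 bp) were near it.

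Of the 9 member scores below 5, 5 lay on a fragment with a score at least 10 times higher in a library of another group. All 4 member scores below 5 in Basal library 3 (3, 4 and 4 for Esco1 and 4 for Yy1) fell on fragments with scores of 83 to 502 in Late libraries 3 and 4. Over all listings, 101 of the 206 scores below 5 in Basal library 3 (49.0%) had a score at least 10 times higher in a library of another group. Of the 3 such member scores in Late library 4, the 4 of Esco1 lay on a fragment with 92 and 96 in Reactivated and the 2 and 3 of Yy1 did not have such a counterpart, nor did the 3 of Yy1 in Late library 3 and the 4 of Nipbl in Late library 2. In comparison, over all listings 300 of 645 such scores in Late library 4 (46.5%) had a score at least 10 times higher elsewhere. With the call level of 5 these low scores did not enter the counts of called interactions.

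Neighbouring promoters shared the regions but hardly the fragments. Within the span of the Nipbl cluster, fragments were also listed with Wdr70, Slc1a3, which encodes an astrocyte glutamate transporter, and Card6, and none was a Nipbl fragment. Wdr70 and Slc1a3 are near neighbours of Nipbl in the order of genes of GRCm38.p6. Over all their fragments, in this region or not, Slc1a3 had 0, 1, 1 and 1 calls and Wdr70 had 1, 0, 1 and 1 in Late libraries 1 to 4, where Nipbl had none. Within the Esco1 cluster, Thoc1 had 2 fragments, 1 of them shared, and Camk4, Gnal and Slc39a6 had 1 each. Within the Yy1 cluster, Begain had 4 fragments, 1 of them shared, and Cdc42bpb, Cyp46a1, Setd3, Slc25a47 and Slc39a9 had 1 each.

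The promoters most like each member were sought by the Pearson correlation of called interactions over the 15 libraries, among those with at least 3 fragments and none in common with the member. These values describe libraries that share sets and differ in size, and carry no test. For Nipbl they were Anp32a (r = 0.981), Dpp10, a potassium channel partner gene (0.976), and Hspa2, a heat shock protein gene (0.966), of 3612 promoters compared. Anp32a had 2, 0, 1 and 1 called interactions in Early, 0 in every Basal and Late library, and 3 in each of Reactivated libraries 3 and 4. For Esco1 they were the neuronal kinase gene Map3k12 (0.966), the proteasome activator gene Psme4 (0.954) and Cxxc4 (0.939), which had 4, 4 and 6 called interactions in each of Late libraries 3 and 4. For Yy1 they were Mybl1 (0.923), Cd164 (0.919) and Sh3gl1, an endophilin gene (0.894). Among themselves the 3 members had r of 0.0297 (Nipbl and Esco1), 0.439 (Nipbl and Yy1) and 0.382 (Esco1 and Yy1) over the 15 libraries, so they did not share a single pattern.

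The wider architecture list, chosen for function, gave 0 promoters past the limma threshold in any of the 3 comparisons. Of its 9 members 3 were higher and 5 lower in Early than in Basal, with a median difference of -0.17, while over all promoters 48.4% were higher and 40.0% lower. Maz, a zinc finger factor gene, had 3 ± 1 called interactions in Basal (SD, n = 3) and 1.5 ± 1.29 in Early (n = 4), and Hnrnpu, which encodes a nuclear matrix RNA-binding protein, had 1.33 ± 2.31 and 2.25 ± 1.71. In Late against Early 5 were higher and 2 lower, with a median of 0.25, against 49.2% and 36.6% of all promoters. Maz was at 2.25 ± 2.06 and Hnrnpu at 3 ± 1.83 in Late, a difference of 0.75 for each, and Lmna, the lamin A/C gene, was at 0.5 ± 0.577 against 1.5 ± 1.29. In Reactivated against Late 3 were higher and 5 lower, with a median of -0.25, against 44.0% and 42.9% of all promoters. Nsmce4a, an SMC5/6 complex subunit gene, had 0.5 ± 0.577 against 1.25 ± 1.26, and Sgol2, a gene for a protector of cohesin at centromeres, had 0.25 ± 0.5 against 0. The median over all promoters was 0 in each comparison. Nipbl and Esco1 had the largest differences of the list in Late against Early and in Reactivated against Late, but this describes members that were chosen with results known.

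For Yy1 a promoter window was given in the RefSeq promoter table, 250 bases before the annotated start on chromosome 12 from 108793047 to 108793296 (GRCm38.p6, plus strand), while Nipbl and Esco1 had no entry there. The window lies inside the annotated extent of the gene, so it may hold transcribed bases of a transcript that starts upstream, and its composition and motif matches need not be those of a promoter. It was 81.2% G and C, against a median of 52.4% over 32851 windows. On both strands it held 0 matches to AAGCTT, the HindIII site that bounds the fragments of this assay and is found in 6.22% of windows, and 0 to AAGATGGC, a YY1 core motif found in 1.56%. No match says only that these letters are not in the window. This window is on another build than the fragments and was not placed on their map.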

How the data were processed

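Promoter-capture Hi-C was made from sorted hippocampal neuronal nuclei in 15 libraries. Per the labels' protocols, nuclei were fixed with 2% paraformaldehyde for 10 min, cut with HindIII, and hybridised, after 17 cycles of PCR, to 10000 RNA baits that cover 5000 promoters. Each deposited value is an interaction score that the authors gave to a promoter and a fragment, per the file headers. The build is mm9, per the submitters' processing notes. The score's computation and normalisation are, like the read depth, not given in the sources used here. Scores are whole numbers with very different sums per library, so a difference in score or in calls can carry a difference in depth, which is unknown. Groups came from the sample titles.

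Called interactions (score of 5 or more) per promoter, for the 4403 with a call, and asinh(score) per listing (0 where none is listed) for all 36353 were each fitted on all 15 libraries by limma 3.58.1 (variance trend, robust step; statmod 1.5.0, R 4.3.3), with Benjamini-Hochberg adjustment over the whole table and a threshold of 0.05. The fit of called interactions was tested on simulated counts with independent libraries, which leaves out the sharing between paired libraries, and the fit of scores was not tested in this way. With the library sizes found here, it recovered 0 of 200 promoters given 2 added calls in each comparison. Given 10 added calls it recovered 185 (Early against Basal), 194 (Late against Early) and 191 (Reactivated against Late) of 200. The calls were added to every library of a group, also to Reactivated libraries 1 and 2, which in the data held 30 and 248 in all. These figures may therefore overstate what the fit can recover here. Libraries of a group sharing at least 40% of the smaller library's fragments formed a set. All 3 member names matched a RefSeq symbol.

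Members and lists were chosen with earlier results of these data known. Named fragments were, per promoter, the 3 scored in most libraries, the one with the highest score and the largest rise and fall in each comparison; others named were chosen after their values were seen. Alternatives were the score for a call, the scale, library size, variance trend, shared fragments, library sets, small libraries, a filter, the replicate number and each library left out. Other steps used matplotlib 3.10.9, scipy 1.17.1, numpy 2.4.6, pandas 2.3.3 and Python 3.11.15.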

Additional observations from a re-analysis of the deposited data

Results flagged for a closer look

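In 10 of 75 groups of 4 libraries tested, the highest or lowest library stood apart from the other 3 by Dixon's criterion. Chance reaches it in about 1 of 20 groups of normally distributed values, a rate that does not apply here. With values of mostly 0, a single scored library is enough, groups of equal values cannot be flagged, and the fragments were picked by their own values. Among called interactions the flagged groups were Yy1 in Late, with 2 in Late library 3 against 1 in the others, Nsmce4a in Early, with 0 in Early library 2 against 1, and Sgol2 in Reactivated, with 1 in Reactivated library 4 against 0. Among fragment scores with no score in the other 3 libraries of the group were 115 for Esco1 in Early library 1 (chromosome 18 from 10795753 to 10798098) and 4 for Nipbl in Late library 2 (chromosome 15 from 7968851 to 7977227). Early library 1 alone of its group also scored the Nipbl fragment with 14 that recurred in Reactivated, and the Yy1 fragments with 6 (chromosome 12 from 90730244 to 90730984), 7 (that shared with Begain) and 66 (that shared with Basal libraries 1 and 2). Early library 4 alone scored 16 on the Yy1 fragment listed with Traf3. Of these 7 fragment scores, 5 came from Early library 1, the largest Early library by called interactions, with 6849. Early library 4, with 6566, gave 1. It is paired with Early library 3, whereas Early library 1 is paired with none, so lone scores arise there more readily.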

How the results depend on the processing

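None of the 9 member differences passed the limma threshold with all 15 libraries, and those that passed under another setting did so without Reactivated library 1, 2 or both, or without Late libraries 1 and 2. Nipbl in Reactivated against Late came to 5 without Reactivated libraries 1 and 2 and ranged from 1.67 to 3.33 with a single library left out, passing without Reactivated library 1 or 2 (3.33; limma adjusted p of 0.0274 and 0.0291). Without Late libraries 1 and 2 Esco1 passed at 6.25 in Late against Early and at -5.5 in Reactivated against Late. Leaving out the sets Late 1 and 2, Late 3 and 4 or Early 3 and 4 was chosen after seeing the data. Some small differences changed sign. Esco1 in Early against Basal became 0.0833 at a score of 10 or more and with fragments of 1 promoter, and 0.167 without Early libraries 3 and 4. Yy1 in Late against Early ranged from -0.0833 (without Early library 2 or 3) to 0.917 with a library left out and was -0.25 without Early libraries 3 and 4. Yy1 in Reactivated against Late ranged from -0.583 to 0.0833 (without Reactivated library 1 or 2), and was 0.25 with fragments of 1 promoter and 0.75 without both small libraries.

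The counts of promoters past the limma threshold, 0 in each comparison, moved as follows for Early against Basal, Late against Early and Reactivated against Late in that order. Per 1000 called interactions they were 2, 6 and 3, and without both small Reactivated libraries 1, 4 and 1238. Without the variance trend the latter counts were 2 and 6, without Late libraries 3 and 4 they were 109 and 117, and without Late libraries 1 and 2 they were 143 and 143. With a library left out the ranges were 0 to 7, 0 to 27 and 0 to 193, the highest without Basal library 3, Late library 3 or 4, and Reactivated library 1. The counts of listings, also 0, were 142, 57 and 59 without the trend, 191, 63 and 9121 without both small libraries, 145, 101 and 58 without Early libraries 3 and 4, and 198, 4895 and 5201 without Late libraries 1 and 2. With a library left out they ranged from 0 to 2093 (without Basal library 3), 0 to 93 (without Early library 1) and 0 to 4929 (without Reactivated library 2). The cause was not tested.

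With the replicate number as a replicate block, all these counts were 0 and no member's call changed: Nipbl differed by 1.72, -2 and 2.5, Esco1 by -0.94, 3.75 and -3 and Yy1 by -1.08, 0.25 and -0.25. Deviations from the group means correlated at 0.226 to 0.462 between libraries numbered 2 and at 0.147 to 0.466 between those numbered 4, but from -0.37 to 0.473 for number 1 and from -0.082 to 0.493 for number 3. Not every pair was thus above 0.1, and the numbers were not taken to pair the samples. Depth is unknown, and the small libraries limit every comparison with Reactivated.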
